A study of Rattus norvegicus with 105 samples.

Results

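The comparison set muscle that had carried lead (Pb) pellets for 1 month directly against muscle that had carried depleted uranium (DU) pellets for 1 month. Its members were the 3 lead arrays and the 3 depleted uranium arrays of that month, 6 of the 105 arrays of the series, chosen by their labels. The lead group was male Sprague-Dawley rats with 4 lead pellets, 2 in the gastrocnemius of each hind limb, and the depleted uranium group was male Sprague-Dawley rats that carried 4 depleted uranium pellets in the same places. Rats with tantalum (Ta) pellets, the implanted sham of the study, were used only where stated. Per the labels, the rats were bought at about 30 days of age, rested for at least 2 weeks before surgery, and had no other treatment or genetic change. The pellets were cylinders 1 mm wide and 2 mm long, with 8 rats for each metal and month. Each Clariom S Rat array, a microarray of probe sets for rat genes, took 250 ng of RNA pooled from 2 to 3 animals. A p-value here therefore rests on the spread between pools and not between single rats. That spread was estimated within all 35 groups of the series together, and not from the 3 lead and 3 depleted uranium pools alone. The small number of arrays limits the precision of each value.

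Lead is a heavy metal known to inhibit delta-aminolevulinate dehydratase and ferrochelatase, enzymes of heme synthesis. Depleted uranium is a dense metal with weak radioactivity, left after the fissile isotope has been removed from uranium. Cells meet metal ions with metallothioneins and zinc exporters, whose genes are switched on by the metal-sensing factor MTF1, and an implanted solid attracts macrophages that can fuse into giant cells. Tantalum is regarded as an inert implant metal.

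The labelled tissue held in the data. Acta1 (skeletal alpha-actin) measured 14.08, 14.10 and 14.12 on the lead arrays, against 14.03, 14.08 and 14.07 on the depleted uranium arrays, in RMA log2 intensity. The muscle creatine kinase gene Ckm measured 13.46, 13.31 and 13.36 with lead, against 13.44, 13.38 and 13.35 with depleted uranium. Both genes lay near the top of the measured range. Array medians were between 6.45 and 6.54. The median of the control probe sets, a measure of background, was between 4.27 and 4.35 on the lead arrays, between 4.14 and 4.19 on the depleted uranium arrays and between 4.00 and 4.13 on the tantalum arrays, with no overlap among the 3 groups. The median standard deviation between arrays was 0.18 in lead, 0.14 in depleted uranium and 0.15 in tantalum (log2). Lead replicate 2 correlated at 0.978 on average with all other arrays, the lowest of the 6, and 6 arrays of the series were lower still.

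No gene passed the test between lead and depleted uranium at 1 month. A probe set was called where limma's p, adjusted by the Benjamini-Hochberg method over 22954 probe sets, was below 0.05, and 0 were called (0%). The smallest adjusted p was 0.0924. No log2 difference reached 1, a 2-fold change, and the differences ran from -0.79 to 0.90 with a median of 0.00. At an unadjusted p below 0.05, lead was higher for 1256 probe sets (5.47%) and lower for 1260 (5.49%), together 2516, where 5% of the probe sets would be 1148. All 3 lead arrays lay above all 3 depleted uranium arrays for 1778 probe sets (7.75%) and below them for 1712 (7.46%).

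A missed threshold does not show that both metals left the muscle alike, so the intervals were read as well. The 95% confidence interval of a log2 difference had a median half-width of 0.32, and for 95% of the probe sets the half-width was at most 0.47. The whole interval lay within a 2-fold change in either direction for 22734 probe sets (99.0%). For the other 220 a 2-fold difference remained within the interval. Smaller differences were not detectable for many genes with 3 arrays a group.

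The count depended on single lead arrays. Without lead replicate 3, 85 probe sets passed, 21 higher and 64 lower in lead, and the smallest adjusted p was 0.00907. Without lead replicate 2, 0 passed in limma, the smallest adjusted p was 0.849, and 1117 probe sets had an unadjusted p below 0.05, about the 1148 that make up 5%. Leaving out each of the other arrays in turn gave 0 calls and between 1858 and 2454 probe sets at an unadjusted p below 0.05.

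**Figure D1:**
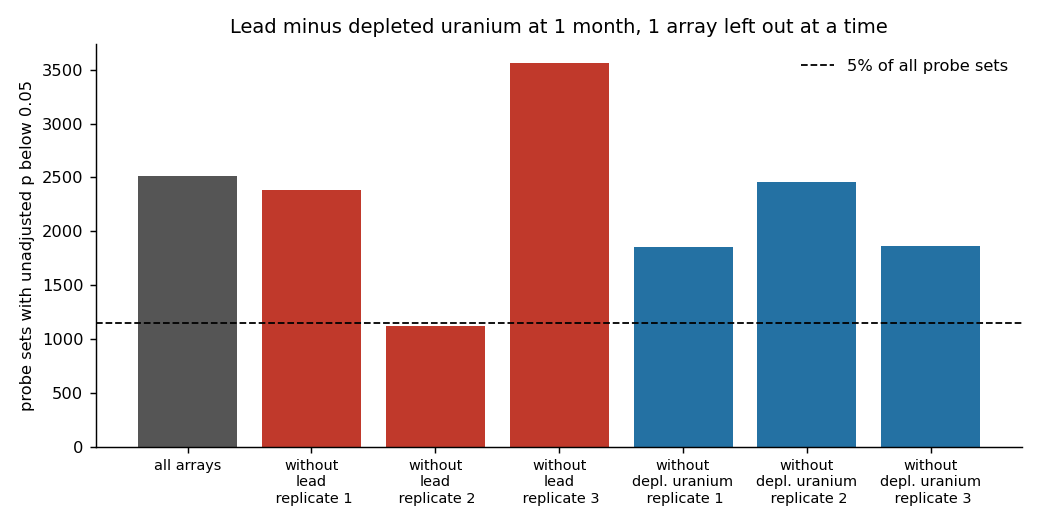
Number of probe sets with an unadjusted p below 0.05 (vertical axis) for lead minus depleted uranium at 1 month, with all arrays (grey) and with each lead (red) or depleted uranium (blue) array left out. The dashed line is 5% of all probe sets, 1148. The bar without lead replicate 2 is at 1117 and the bar without lead replicate 3 at 3561, against 2516 with all arrays.

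With no call in either direction, the 8 genes with the smallest p in each direction are described. All 16 missed the threshold. The 8 with higher values in lead were mostly genes known from tissues other than muscle, and all of them were dim, with means between 4.66 and 5.88 over all arrays of the series. Trim29, a tripartite-motif protein known from epithelia, measured 5.50, 5.06 and 5.11 in lead muscle, against 4.48, 4.23 and 4.37 in depleted uranium muscle. The groups did not overlap, and the log2 difference was 0.87 ± 0.19 (SE, limma adjusted p = 0.134). Pax9, a paired-box developmental factor, measured 5.57, 5.84 and 5.52 with lead, against 5.04, 5.16 and 4.62 with depleted uranium, a difference of 0.70 ± 0.16 (SE). Dll3, a Notch ligand family member, measured 5.61, 5.92 and 5.77 with lead, against 4.84, 5.26 and 5.23 with depleted uranium. Every lead array was above every depleted uranium array for both genes. Blk, a Src-family kinase of B cells, measured 5.20, 5.34 and 5.30 with lead, against 4.77, 4.39 and 4.48 with depleted uranium. The remaining 4 were Cdhr1 (a photoreceptor cadherin) with a difference of 0.79, Stra6l (a retinol-binding protein receptor) with 0.70, Gcg (preproglucagon) with 0.68 and Acsm4 (an acyl-CoA synthetase) with 0.67. Adjusted p-values of the 8 ran up to 0.197. Lead replicate 2 was the highest lead array for 7 of the 8, all except Trim29.

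Of the 8 genes with the smallest p among those lower in lead, 7 were of middle to high intensity. Oma1, a stress-activated protease of the inner mitochondrial membrane, measured 6.84, 6.95 and 7.17 in lead muscle, against 7.74, 7.65 and 7.40 in depleted uranium muscle. Its log2 difference of -0.61 ± 0.13 (SE) had the smallest p of any named gene in that direction, with a limma adjusted p of 0.131. Tnfrsf1a, which encodes TNF receptor 1, measured 7.16, 6.77 and 7.19 with lead, against 7.51, 7.62 and 7.56 with depleted uranium, a difference of -0.52 ± 0.12 (SE, adjusted p = 0.134). The standard deviation was 0.23 in lead and 0.05 in depleted uranium (n = 3 each), and all 3 lead arrays were below the depleted uranium arrays. Srek1, a regulator of splicing, measured 7.92, 7.73 and 8.10 with lead, against 8.45, 8.42 and 8.35 with depleted uranium. Zdhhc17, a palmitoyltransferase, measured 7.61, 6.96 and 7.47 with lead, against 8.04, 7.75 and 7.91 with depleted uranium. Neither gene's groups overlapped, with differences of -0.49 for Srek1 and -0.55 for Zdhhc17. Lpgat1 (a lysophospholipid acyltransferase) differed by -0.52, Osbpl6 (an oxysterol-binding-protein relative) by -0.49 and Ash2l (a subunit of histone H3 lysine 4 methyltransferase complexes) by -0.38. Epcam, an epithelial adhesion molecule, was the exception in level: it measured 3.59, 3.72 and 3.56 with lead, against 4.50, 4.41 and 4.18 with depleted uranium, so that its lead values lay under the control median of their own arrays. Lead replicate 2 was the lowest lead array for 6 of the 8, all except Oma1 and Epcam.

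Without lead replicate 2 the differences of the 16 genes were 0.56 to 0.95 for those higher and -0.79 to -0.25 for those lower in lead. Their smallest limma adjusted p was 0.849. Their signs could not change, since no lead array of these genes overlapped the depleted uranium arrays. Without lead replicate 3, 12 of the 16 passed.

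**Figure D2:**
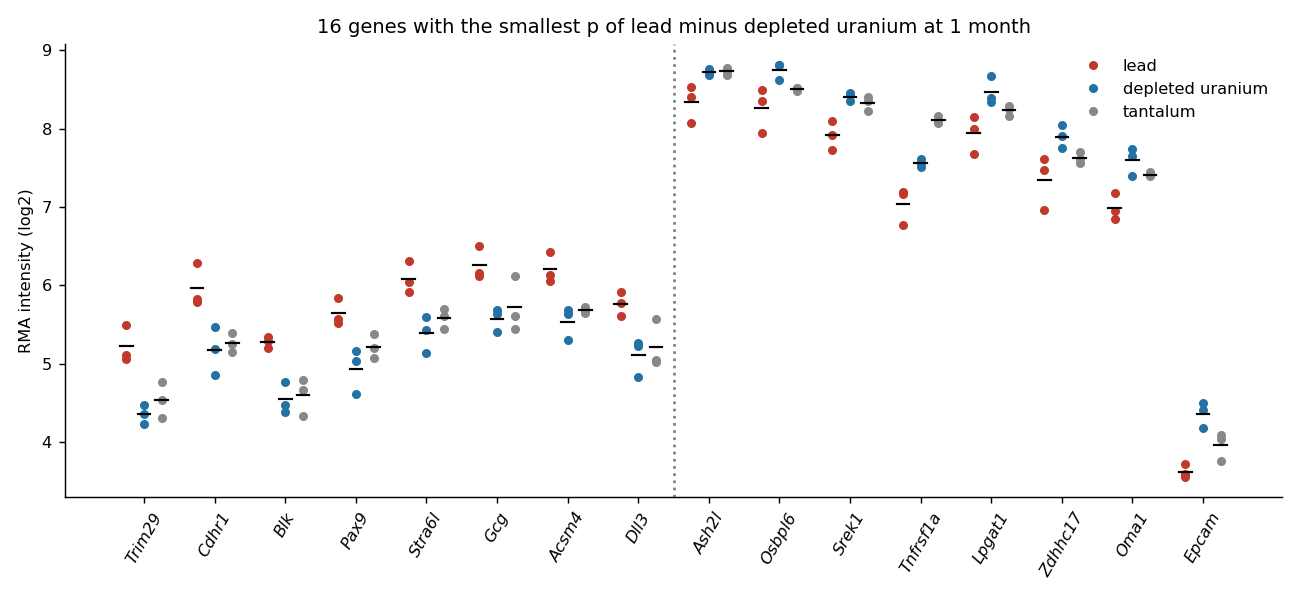
RMA log2 intensity (vertical axis) of the 16 genes with the smallest p, 8 higher in lead left of the dotted line and 8 lower right of it, on the 3 arrays of lead (red), depleted uranium (blue) and tantalum (grey), with black bars for means. No lead array overlaps the depleted uranium arrays of the same gene, the 8 genes higher in lead have means between 4.66 and 5.88 over all arrays of the series, and Epcam, lower in lead, is the dimmest at 3.88.

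The direction of the difference went with the brightness of the probe set. Probe sets with an unadjusted p below 0.05 had a median level of 5.69 where lead was higher and 7.96 where lead was lower, against 6.46 over all probe sets. When the probe sets were sorted by mean level into 5 bins of equal size, the median log2 difference was 0.08, 0.11, 0.05, -0.07 and -0.09 from the dimmest to the brightest bin. The dimmest bin held 303 probe sets higher and 52 lower in lead at an unadjusted p below 0.05, and the brightest held 11 higher and 498 lower. Lead replicate 2 showed the widest shift, from 0.16 above the depleted uranium mean in the dimmest bin to -0.20 in the brightest. Lead replicate 1 went from 0.06 to -0.06 and lead replicate 3 from 0.01 to -0.02. The control median was also highest on the lead arrays, and its part in this pattern was not tested.

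Olfactory receptor genes, which muscle is not known to use, were looked at after these values had been seen. Their 977 probe sets had a median level of 4.31, near the control probe sets. The median over them was 4.28, 4.42 and 4.21 on the lead arrays, against 4.23, 4.23 and 4.23 on the depleted uranium arrays, so lead replicate 2 stood above all others and lead replicate 3 below all depleted uranium arrays. The median log2 difference of lead minus depleted uranium was 0.09, and 651 of the 977 were positive. The named genes higher in lead were brighter, with means between 4.66 and 5.88, and the part of this shift in their differences was not tested.

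**Figure D3:**
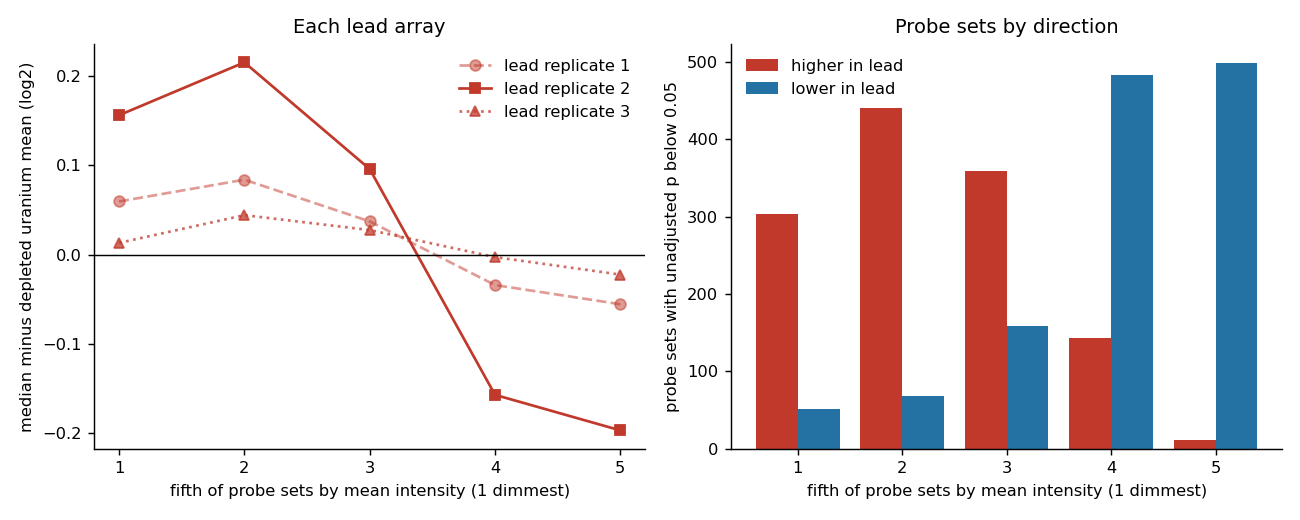
Left, median difference of each lead array from the depleted uranium mean (log2) in 5 bins of probe sets from dimmest (1) to brightest (5). Right, number of probe sets with an unadjusted p below 0.05 in each bin, higher (red) or lower (blue) in lead. Lead replicate 2 runs from 0.16 to -0.20, and the counts move from mostly higher (303 and 52) to mostly lower (11 and 498).

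The known responses to metal, injury and implants were read from 36 gene lists, 26 of pathways and 10 of cell types, with 456 of their 532 genes measured. No member passed between lead and depleted uranium, and the smallest limma adjusted p of a member was 0.258. At an unadjusted p below 0.05, 15 members (3.29%) were higher and 9 (1.97%) lower in lead, both under the 5.47% and 5.49% of all probe sets. All lead arrays lay above all depleted uranium arrays for 25 members (5.48%) and below them for 28 (6.14%). Over all probe sets these shares were 7.75% and 7.46%, higher than among the members in both directions. The median difference over the members was -0.01, and list medians ran from -0.18 for adipocytes to 0.18 for neutrophils. The 95% interval lay within a 2-fold change for 451 members (98.9%). The 5 exceptions were Adipoq, Atf3, Cxcl13, Mmp12 and Sln.

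**Figure D4:**
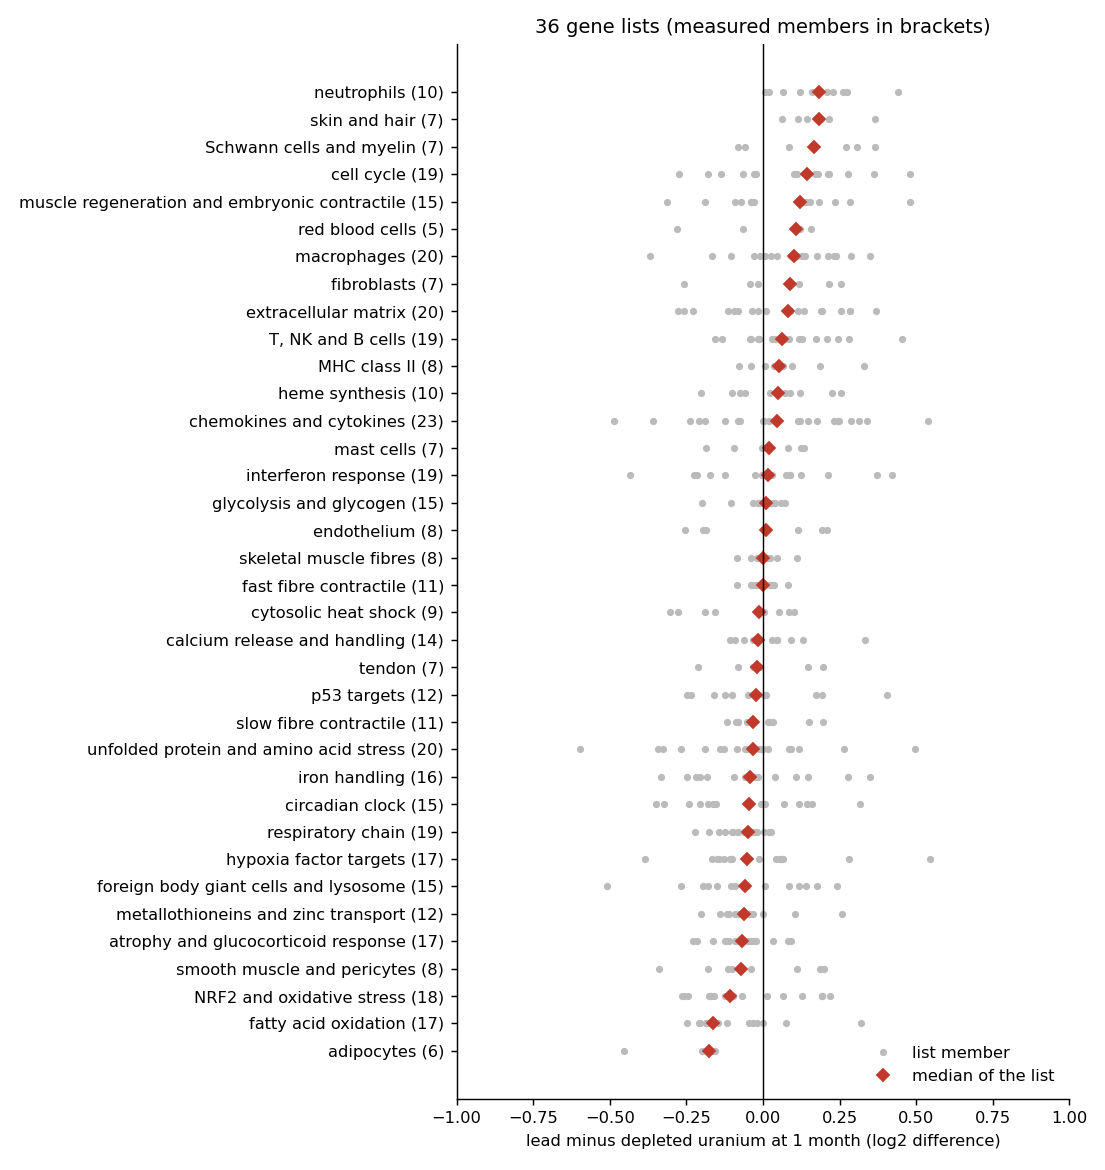
Log2 difference of lead minus depleted uranium at 1 month (horizontal axis) for the measured members (grey points) of 36 gene lists and the median of each list (red diamonds). All medians lie between -0.18 and 0.18 and no member reaches 1 in either direction.

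The metallothioneins, small cysteine-rich proteins that bind zinc, cadmium and copper, were at nearly the same level under both metals. Mt1 measured 7.14, 7.00 and 7.63 in lead muscle, against 7.52, 7.14 and 7.20 in depleted uranium muscle. The groups overlapped, with a difference of -0.03 and a 95% interval from -0.52 to 0.45. Mt2A measured 9.37, 9.30 and 9.52 with lead, against 9.71, 9.49 and 9.32 with depleted uranium, a difference of -0.11 with an interval from -0.58 to 0.36. A 2-fold difference in either direction was outside both intervals. Slc30a1, the zinc exporter of the cell membrane, measured 7.12, 6.90 and 7.08 with lead, against 7.20, 7.12 and 7.05 with depleted uranium. Mtf1, the metal-sensing factor itself, differed by -0.20 and Slc30a2, a vesicular zinc transporter, by 0.26. Of 12 measured members, 3 were positive and 9 negative, with a median of -0.06.

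The promoters of both metallothioneins are shown because they hold the sequence that MTF1 is known to bind, the metal response element. Both come from RefSeq's rat assembly GRCr8, from 250 bases before to 50 bases after the start of the gene, read 5′ to 3′ on the minus strand. Mt1 spans chr19:10832926-10833225 and Mt2A spans chr19:10838659-10838958. Capitals mark the core letters TGCACNC and TGCGCNC, searched on both strands.
Mt1: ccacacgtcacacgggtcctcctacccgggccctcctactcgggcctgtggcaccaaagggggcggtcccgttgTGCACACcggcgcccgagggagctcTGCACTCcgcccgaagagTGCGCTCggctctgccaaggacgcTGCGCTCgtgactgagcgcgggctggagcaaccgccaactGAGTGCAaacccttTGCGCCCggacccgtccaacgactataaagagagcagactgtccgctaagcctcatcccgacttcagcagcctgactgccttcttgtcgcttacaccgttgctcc
Mt2A: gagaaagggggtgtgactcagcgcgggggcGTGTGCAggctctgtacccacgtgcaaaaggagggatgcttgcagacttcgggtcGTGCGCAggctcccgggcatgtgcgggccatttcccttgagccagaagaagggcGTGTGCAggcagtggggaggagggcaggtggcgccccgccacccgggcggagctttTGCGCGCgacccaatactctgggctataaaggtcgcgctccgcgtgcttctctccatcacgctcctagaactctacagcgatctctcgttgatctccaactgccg
The Mt1 window held 6 such cores and the Mt2A window held 4. Of 33469 promoter windows of the same length, 24.2% held at least 1 core, 0.439% at least 4 and 0.0388% at least 6. A match of letters is a description and not a measured binding site.

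Genes of heme synthesis, where lead is known to act on the enzymes, did not pass. Alad, which encodes delta-aminolevulinate dehydratase, measured 7.30, 7.55 and 7.35 in lead muscle, against 6.95, 7.45 and 7.12 in depleted uranium muscle, a difference of 0.23 with an interval from -0.11 to 0.56. Fech, the gene of ferrochelatase, measured 8.74, 8.71 and 8.89 with lead, against 9.06, 9.07 and 8.82 with depleted uranium, a difference of -0.20 with an interval from -0.42 to 0.01. Both genes' groups overlapped. Tspo, a protein of the outer mitochondrial membrane, had the smallest p of the 10 measured members, with 6.89, 7.37 and 7.00 in lead, against 6.68, 6.98 and 6.83 in depleted uranium (difference 0.26, limma adjusted p = 0.446). Alas1, the first enzyme of the pathway outside red cells, differed by 0.07. The list median was 0.05.

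Iron handling gave a median of -0.04 over 16 measured members, or 0.01 after a second quantile normalization. Ftl1, the ferritin light chain that stores iron, measured 9.69, 9.67 and 9.81 in lead muscle, against 9.64, 9.86 and 9.76 in depleted uranium muscle. The values were interleaved and the difference was -0.03, with an interval from -0.55 to 0.49. Ireb2, an iron-sensing regulator of messenger RNA, differed by -0.25 and Cd163, the hemoglobin scavenger receptor of macrophages, by 0.35.

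Oxidative stress and protein stress genes were mixed in sign. Of 18 measured targets of the oxidative stress factor NRF2, 12 were negative and the median was -0.11. Their median level was 7.61 to 7.71 on the lead arrays and 7.65 to 7.84 on the depleted uranium arrays, above the 6.46 of all probe sets. Hmox1, heme oxygenase 1, measured 6.40, 6.66 and 6.25 with lead, against 6.09, 6.36 and 6.28 with depleted uranium, a difference of 0.19 with an interval from -0.41 to 0.80. Taldo1, of the pentose phosphate pathway, differed by -0.26 and Gclm, of glutathione synthesis, by -0.24. In the unfolded protein and amino acid stress list, 1 member was higher and 3 were lower at an unadjusted p below 0.05, of 20 measured. Over all probe sets 5.47% were higher and 5.49% lower at that cutoff. The list had 6 positive and 14 negative differences, with a median of -0.03. That median was 0.02 after a second quantile normalization and -0.08 with each array centred on its median. Trib3, a pseudokinase induced by ATF4, measured 6.52, 6.50 and 6.28 in lead muscle, against 6.17, 6.13 and 5.52 in depleted uranium muscle (difference 0.50, limma adjusted p = 0.258). Dnajb9, a cochaperone of the endoplasmic reticulum, measured 8.43, 8.12 and 8.58 with lead, against 8.69, 8.65 and 8.82 with depleted uranium (difference -0.34, adjusted p = 0.258). Atf3, a stress-induced transcription factor, measured 8.49, 8.18 and 8.04 with lead, against 8.57, 8.57 and 9.37 with depleted uranium. No lead array reached a depleted uranium array of Atf3, but depleted uranium replicate 3 alone stood apart at 9.37. Hspa5, the central chaperone of the endoplasmic reticulum, differed by 0.09 and Ddit3, a stress-induced factor, by 0.12. Hspd1, the mitochondrial chaperonin, measured 10.24, 10.24 and 10.51 with lead, against 10.56, 10.57 and 10.77 with depleted uranium, a difference of -0.30.

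The p53 targets, which respond to DNA damage, had a median of -0.02 over 12 measured genes. Cdkn1a, the cell cycle inhibitor p21, measured 7.37, 7.46 and 7.43 in lead muscle, against 6.83, 7.04 and 7.18 in depleted uranium muscle. The groups did not overlap, and the difference of 0.40 had an interval from -0.02 to 0.83 (limma adjusted p = 0.483). Mdm2, the ligase that restrains p53, differed by -0.12 and Bax, a promoter of cell death, by -0.25. Cell cycle genes had a median of 0.14, with 13 of 19 positive, led by Mcm3 (a replication helicase subunit) at 0.36 and Ccnb2 (cyclin B2) at 0.48. Their median level was 5.51 to 5.82 on the lead arrays and 5.39 to 5.66 on the depleted uranium arrays. These levels fall in bin 2 of the 5 brightness bins, where the median over all probe sets was 0.11. The list median was 0.05 after a second quantile normalization and 0.10 with each array centred on its median.

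Genes of leukocytes and inflammation did not pass either. In bulk muscle, fewer cells of a type and less RNA in each cell cannot be told apart. Cxcl1, a neutrophil-attracting chemokine, measured 6.65, 7.38 and 6.68 in lead muscle, against 6.52, 6.13 and 6.44 in depleted uranium muscle (difference 0.54, limma adjusted p = 0.302). Ccl4, a chemokine of macrophages and T cells, measured 6.95, 6.88 and 7.00 with lead, against 6.53, 6.69 and 6.67 with depleted uranium. Ccl20 measured 6.72, 7.03 and 6.73 with lead, against 6.33, 6.70 and 6.44 with depleted uranium. All 3 chemokines were higher on every lead array than on any depleted uranium array. They come from a list of 23 measured chemokine and cytokine genes, of which 4 showed such a separation upward and 0 downward. Over all probe sets, 7.75% lay wholly above and 7.46% wholly below. The list had 15 positive and 8 negative differences, with a median of 0.05. That median was 0.05 after a second quantile normalization and 0.004 with each array centred on its median. All 10 measured neutrophil genes had positive differences, from 0.01 to 0.44, but their median level was 5.15 to 5.30 on the lead arrays and 4.87 to 5.23 on the depleted uranium arrays, in the dim range where most probe sets were higher in lead. Elane, neutrophil elastase, differed by 0.44 and Nkg7, of cytotoxic granules, by 0.45. Of 20 macrophage genes 15 were positive, with a median of 0.10, and C1qa, a complement subunit, differed by 0.21. Cd68, a lysosomal protein of macrophages, measured 7.02, 7.07 and 7.46 with lead, against 6.98, 7.55 and 7.04 with depleted uranium. Interferon response genes had a median of 0.02, or -0.03 after either rescaling of the arrays (a second quantile normalization or median centring), with Ifit1 at 0.42 and Isg15 at -0.43.

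Single depleted uranium arrays stood out for a few inflammation genes. Mmp12, the macrophage elastase, measured 5.30, 4.47 and 4.86 with lead, against 4.71, 6.84 and 4.61 with depleted uranium, where replicate 2 alone was high. Cxcl13, a B-cell attracting chemokine, measured 4.75, 5.11 and 5.65 with lead, against 4.74, 6.82 and 5.42 with depleted uranium. The same array, depleted uranium replicate 2, was the high one, and both intervals reached beyond a 2-fold change. Extracellular matrix genes had a median of 0.08 and 0 of 20 members at an unadjusted p below 0.05, with Postn (periostin) at 0.37, Mmp3 (stromelysin) at 0.28 and Timp1, a metalloproteinase inhibitor, at -0.23.

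No contractile gene of muscle passed. The 11 fast-fibre genes lay between -0.09 and 0.08 with a median of 0.00, and the 11 slow-fibre genes between -0.12 and 0.20 with a median of -0.03. Myh1, a fast myosin heavy chain, measured 13.18, 13.25 and 13.25 in lead muscle, against 13.30, 13.33 and 13.30 in depleted uranium muscle. Myh7, the slow myosin heavy chain, measured 12.40, 12.75 and 12.80 with lead, against 12.78, 12.82 and 12.60 with depleted uranium. Among 15 genes of regeneration and embryonic fibres, Chrng, the fetal acetylcholine receptor subunit that denervated fibres are known to regain, measured 5.77, 6.39 and 6.08 with lead, against 5.74, 5.63 and 5.43 with depleted uranium (difference 0.48, limma adjusted p = 0.345). Pax7, the satellite cell factor, measured 7.74, 7.61 and 7.30 with lead, against 7.36, 7.29 and 7.16 with depleted uranium, a difference of 0.28 with overlap at lead replicate 3. Myh3, embryonic myosin, differed by 0.24 and Myf6, a myogenic factor of mature fibres, by -0.19. In the atrophy and glucocorticoid list 14 of 17 genes were negative, with a median of -0.07 (0.01 after a second quantile normalization) and Glul (glutamine synthetase) at -0.22.

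Energy genes, which are bright in muscle, had mostly negative differences, none of which passed. Fatty acid oxidation had 15 of 17 negative differences with a median of -0.16, and the respiratory chain 16 of 19 with a median of -0.05, where the brightest bin of all probe sets had a median of -0.09. After a second quantile normalization the respiratory chain median turned to 0.01 and that of fatty acid oxidation was -0.07. Acadm, medium-chain acyl-CoA dehydrogenase, measured 10.62, 10.89 and 10.83 in lead muscle, against 11.06, 10.87 and 11.16 in depleted uranium muscle (difference -0.25). Hadhb, a subunit of the mitochondrial trifunctional protein, measured 11.19, 11.36 and 11.45 with lead, against 11.47, 11.49 and 11.60 with depleted uranium (difference -0.19). Plin5, a lipid droplet protein, went the other way at 0.32, with 7.96, 8.42 and 7.92 in lead, against 7.80, 7.74 and 7.80 in depleted uranium. Glycolysis and glycogen genes had a median of 0.01 (-0.03 with median centring), with Hk2 (hexokinase 2) at -0.20. Of the hypoxia factor targets, Kdm3a, a histone demethylase, differed by -0.39 and Ankrd37 by 0.55. Among clock genes, Cry1 (a repressor) measured 6.72, 6.56 and 7.03 with lead, against 7.13, 7.08 and 7.14 with depleted uranium, and Bmal1 (an activator) differed by -0.32. Of 15 measured clock genes 9 were negative and 6 positive, up to 0.32, with a median of -0.05. That median was 0.04 after a second quantile normalization and -0.09 with median centring. The hour at which muscle was taken is not given in the sources used here.

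Some markers of other cells in the muscle moved with single arrays. Adipoq, the adipocyte hormone adiponectin, measured 9.05, 8.78 and 9.44 in lead muscle, against 8.95, 8.68 and 11.01 in depleted uranium muscle, so that depleted uranium replicate 3 alone was high. All 6 measured adipocyte genes had negative differences, with a median level of 6.89 to 7.22 on the lead arrays and 6.82 to 7.94 on the depleted uranium arrays. Tendon genes ranged in median level from 7.85 to 8.16 on the lead arrays and from 7.28 to 8.72 on the depleted uranium arrays. In the Schwann cell list, Prx, a myelin protein of peripheral nerve, measured 8.07, 8.49 and 8.32 with lead, against 7.99, 8.06 and 8.01 with depleted uranium (difference 0.27). The list median of 0.17 was 0.38 without lead replicate 1 and 0.05 without lead replicate 3. All 7 measured skin and hair genes were positive, with a median of 0.18, median levels of 6.27 to 6.65 on the lead arrays and 6.24 to 6.30 on the depleted uranium arrays, and Krt17 (a keratin) at 0.37. Endothelial genes had a median of 0.01, fibroblast genes 0.09, red blood cell genes 0.11 and mast cell genes 0.02, of which those of endothelial and mast cells turned negative with median centring (-0.03 and -0.02). The part of these cells in the differences was not tested.

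The same difference was then read at the later months. At 3 and 6 months 0 probe sets passed in limma (0% each), with 592 and 1017 at an unadjusted p below 0.05. For the 16 named genes, all 48 later differences were smaller in size than that of 1 month and ran from -0.40 to 0.41, and the genes had been chosen for their difference at 1 month. Tnfrsf1a, at -0.52 with 1 month of implant, differed by -0.04, 0.14 and 0.04 at 3, 6 and 12 months. Pax9 differed by 0.41 at 6 months and Stra6l by 0.40 at 12 months, both in the direction of 1 month. Their limma adjusted p was 0.999 and 0.779. Cdhr1 differed by -0.40 at 3 months, against its direction at 1 month (limma adjusted p = 0.9999). The change of the difference between 1 month and the mean of later months was tested for all probe sets: 0 passed (0%), 1757 had an unadjusted p below 0.05, and the smallest adjusted p was 0.24. At 12 months 2 probe sets passed (0.00871%). Trmu, a mitochondrial transfer RNA modifying enzyme, averaged 5.84 with lead and 5.03 with depleted uranium at 12 months, and was higher by 0.81 in lead (limma adjusted p = 0.0363), where its difference at 1 month was -0.26. Gramd1c, a sterol transfer protein, averaged 6.51 with lead and 7.27 with depleted uranium at 12 months (difference -0.75, limma adjusted p = 0.012). With 1 of the 6 arrays of 12 months left out in turn, Trmu passed in 2 of 6 fits and Gramd1c in 3 of 6. Leaving out replicate 1 or 3 of depleted uranium or replicate 1 of lead ended both calls, with adjusted p from 0.0657 to 0.297, and leaving out replicate 2 of lead ended that of Trmu (0.0875).

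The position of both metals relative to the tantalum sham was set side by side, and the 2 comparisons share the 3 tantalum arrays. Lead differed from tantalum in 693 probe sets (3.02%), 295 higher and 398 lower. The split depended on scaling, with 240 higher and 217 lower after a second quantile normalization and 256 higher and 634 lower with each array centred on its median. Depleted uranium differed from tantalum in 56 probe sets (0.244%), 2 higher and 54 lower. The unequal counts do not show that the metals differed, since the direct comparison above is the test of that and called none. The lead count was 29 without lead replicate 2, 1230 without lead replicate 3 and 460 without lead replicate 1. Leaving out a tantalum array gave 300 (replicate 1), 114 (replicate 2) or 617 (replicate 3). The depleted uranium count was between 2 and 24 with any 1 of its 6 arrays left out.

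Over all probe sets, 3.02% passed for lead against tantalum, 295 higher and 398 lower, and 0.244% for depleted uranium, 2 higher and 54 lower. Among the 456 measured list members, 21 passed for lead against tantalum, 18 of them lower. For depleted uranium 4 passed, all lower: Cacng6, Ftl1, Ncam1 and Vegfb. These 4 had almost the same level under both metals. Cacng6, a calcium channel subunit of muscle, measured 8.78, 8.42 and 8.63 in lead muscle and 8.70, 8.69 and 8.51 in depleted uranium muscle, against 9.39, 9.51 and 9.55 in tantalum muscle. Its difference from tantalum was -0.87 in lead (limma adjusted p = 0.00101) and -0.86 in depleted uranium (0.00352), and the direct difference was -0.02 with an interval from -0.33 to 0.30. The difference of Ftl1 from tantalum was -1.18 in lead (0.00799) and -1.15 in depleted uranium (0.0261), with tantalum arrays at 10.69, 10.83 and 11.18. Both metals' 6 values lay under every tantalum array for each of these genes. Ncam1, an adhesion molecule of regenerating and denervated fibres, differed from tantalum by -0.75 in lead (0.0185) and by -0.91 in depleted uranium (0.0143). Vegfb, a growth factor, differed by -0.62 in lead (0.0185) and by -0.69 in depleted uranium (0.0261). With 1 array left out at a time, Cacng6 kept its lead call in 6 of 6 fits and its depleted uranium call in 5 of 6, lost without depleted uranium replicate 3 (0.0658). Ftl1 kept its lead call in 5 of 6 fits, lost without lead replicate 2 (0.0843), and its depleted uranium call in 0 of 6 (0.0501 to 0.167). Ncam1 passed in 3 of 6 for lead, lost without lead replicate 2 or tantalum replicate 1 or 3 (0.0582 to 0.182), and in 2 of 6 for depleted uranium, lost without depleted uranium replicate 2 or 3 or tantalum replicate 1 or 3 (0.0582 to 0.114). Vegfb passed in 2 of 6 for lead, lost without lead replicate 1 or 2 or tantalum replicate 1 or 2 (0.0563 to 0.0696), and in 0 of 6 for depleted uranium. Of the 21 members called for lead, only Cacng6 passed without lead replicate 2.

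Tnfrsf1a, Lpgat1 and Epcam were the named genes whose 3 groups did not overlap at all, and Tnfrsf1a was lowest with lead and highest with tantalum, where Lpgat1 and Epcam were highest with depleted uranium. Tnfrsf1a measured 7.16, 6.77 and 7.19 with lead and 7.51, 7.62 and 7.56 with depleted uranium, against 8.08, 8.07 and 8.16 with tantalum. It differed from tantalum by -1.06 in lead (limma adjusted p = 3.02e-09), a call kept in 6 of 6 fits with 1 array left out, and by -0.54 in depleted uranium (0.0258), a call kept in 0 of 6, with adjusted p between 0.0582 and 0.149. The step from depleted uranium to lead missed the threshold, as given above. Mt2A differed from tantalum by -0.82 in lead (adjusted p = 0.0387) and by -0.71 in depleted uranium (0.272). The Mt2A call was lost without lead replicate 1 or 2 or tantalum replicate 2 or 3, with adjusted p up to 0.269. For Mt1 the differences were -0.73 in lead (0.0772) and -0.70 in depleted uranium (0.309). Tantalum replicate 3 alone was high for both metallothioneins, at 8.54 for Mt1 and 10.84 for Mt2A. Of the other named genes, Blk, Cdhr1, Dll3, Ash2l, Srek1 and Trim29 were called in lead against tantalum and none in depleted uranium. Blk, Cdhr1 and Dll3 differed by 0.68, 0.70 and 0.55 in lead, Ash2l and Srek1 by -0.39 and -0.41 (limma adjusted p = 0.017 to 0.0351). Each of these calls was lost without lead replicate 2 (0.198 to 0.323). Trim29 was higher than tantalum by 0.68 in lead (0.0348) and differed by -0.18 in depleted uranium (0.876). The lead call of Trim29 was lost without lead replicate 1 or 2 or tantalum replicate 1 or 2, with adjusted p from 0.0798 to 0.183.

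**Figure D5:**
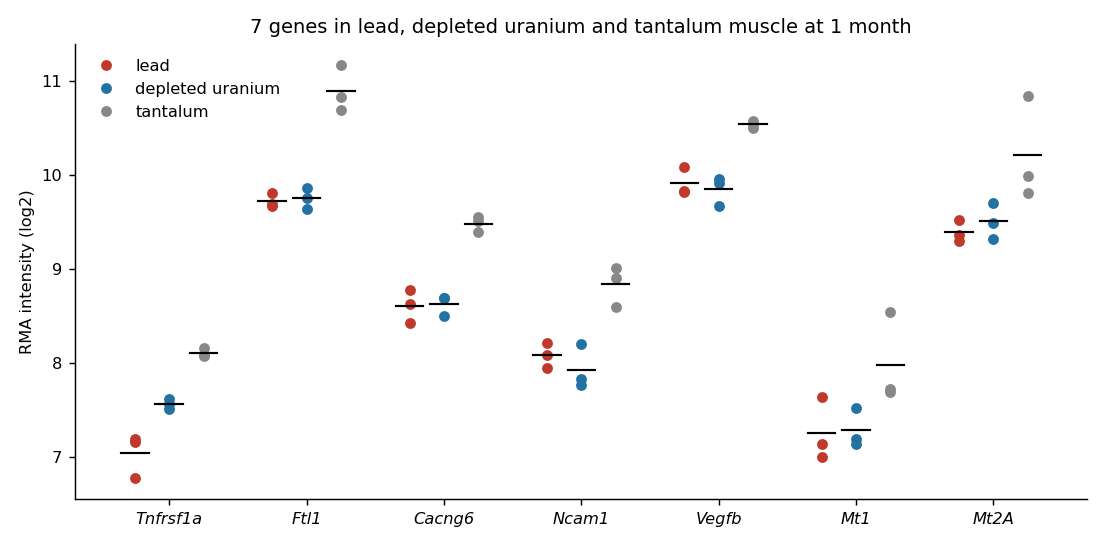
RMA log2 intensity (vertical axis) of 7 genes on the 3 arrays each of lead (red), depleted uranium (blue) and tantalum (grey) at 1 month, with black bars for means. For Ftl1, Cacng6, Ncam1 and Vegfb the lead and depleted uranium arrays lie together under all tantalum arrays, and Tnfrsf1a is lowest with lead.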

How the data were processed

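Gastrocnemius RNA was measured on 105 Clariom S Rat arrays in 35 groups of 3 (metal and month). The series holds no array of nickel at 12 months. The values are log2 RMA intensities deposited by the authors, made with RMA and oligo under R 4.0.1 per the submitters' processing notes. Whether all arrays were normalized together is not given in the sources used here. Of 22977 probe sets, 23 controls were left out and 22954 tested without a filter. Symbols came from a GRCr8 gene table (14855 probe sets with a symbol, 8099 unnamed here).

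Group means and a shared spread were estimated from the 105 arrays together in limma 3.58.1 under R 4.3.3 (70 residual and 7.25 prior degrees of freedom), two-sided, with Benjamini-Hochberg adjustment and a threshold of 0.05; the fit was checked on simulated data. With fewer than 5 calls in a direction, the 8 smallest p in each direction among probe sets with a symbol were named, and up to 4 members per list by p, plus members that show a count, a known target of lead or a marker. The members and lists were chosen with earlier results of these data known. No scan date or batch is given in the sources used here. Alternatives covered normalization, filtering, variance model, array weights, the arrays fitted, thresholds and each array left out.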

Additional observations from a re-analysis of the deposited data

How the results depend on the processing

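The count of 0 between lead and depleted uranium at 1 month held without the dimmest 30% of probe sets, after a second quantile normalization, with arrays centred on their medians, with an intensity trend, with the arrays of that month alone, with the 6 arrays alone (smallest adjusted p = 0.544) and at a threshold of 0.01. It was 3 with array weights (2 higher, 1 lower; Trim29 and Oma1 among them) and ran from 0 to 85 with 1 array left out. The counts at 3 and 6 months were 0 throughout. The 2 calls at 12 months became 3 without the dimmest 30% of probe sets and 3 after a second quantile normalization. The count was 1 with median centring, 1 with the intensity trend and 1 with the arrays of that month alone. It was 0 with array weights and 0 at a threshold of 0.01, and 0 to 5 with 1 array left out. The change between months gave 1 call with array weights and 0 to 1 with 1 array left out. Lead against tantalum gave 457 calls after a second quantile normalization, 98 at a threshold of 0.01 and 29 to 1230 with 1 array left out (460 without lead replicate 1, 300 without tantalum replicate 1, 114 without tantalum replicate 2). Depleted uranium against tantalum gave 119 with array weights, 9 at a threshold of 0.01 and 2 to 24 with 1 array left out. The cause of these shifts was not tested, except that a stricter threshold can only give fewer calls. Of 266 values of the 16 named genes under 17 settings, 18 passed. All 266 kept their sign, but most settings fixed this in advance. The block, the filter, the variance model, the threshold and the other arrays fitted left the differences unchanged. Leaving out 1 array could not reverse groups that did not overlap. Only a second quantile normalization or median centring could have reversed a sign. Of 576 list medians under 16 of the settings, 5 moved by more than the spread between arrays. Those under the block, the variance model and the other arrays fitted could not move. The 5 included fast fibre genes to -0.04 and muscle fibre genes to -0.04, both with median centring. The others were slow fibre genes to 0.17 without lead replicate 1, and Schwann cell genes as given above. A change of sign within the spread was not counted. Several list medians did change sign after a second quantile normalization. Among them were T, NK and B cells (0.06 to -0.03), circadian clock (-0.05 to 0.04), calcium handling (-0.02 to 0.06) and smooth muscle and pericytes (-0.07 to 0.02).

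The labels do not say whether replicate numbers pair the arrays, and the main fit left these numbers out. Deviations of same-numbered lead and depleted uranium arrays correlated at 0.05, 0.10 and 0.05. Differently numbered pairs ran from -0.07 to 0.02. Each array thus correlated best with its own number, a hint from the data and not the design. With a replicate block, 7 probe sets passed between lead and depleted uranium at 1 month (1 higher, 6 lower, among them Oma1, Srek1, Tnfrsf1a and Zdhhc17), 1683 between lead and tantalum and 190 between depleted uranium and tantalum. The same block fitted on the 6 lead and depleted uranium arrays alone gave 0 (smallest adjusted p = 0.488).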
